A study of Mus musculus with 96 samples.

Results

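The miR-23, miR-27 and miR-24 clusters are a pair of small groups of miRNA hairpins at 2 places in the mouse genome, the a cluster (Mir23a, Mir27a, Mir24-2) and the b cluster (Mir23b, Mir27b, Mir24-1). Their mature miRNAs were chosen by name, and 10 of the 1978 mature miRNAs listed in the count tables belong to them, namely mmu-miR-23a-3p, mmu-miR-27a-3p, mmu-miR-27a-5p and mmu-miR-24-2-5p from the a cluster, mmu-miR-23b-3p, mmu-miR-23b-5p, mmu-miR-27b-3p, mmu-miR-27b-5p and mmu-miR-24-1-5p from the b cluster, and mmu-miR-24-3p, which has the same sequence in both. The prefix mmu-, for mouse, is dropped from here on. Small RNA libraries were made from heart muscle cells (cardiomyocytes, CMs), hematopoietic cells (HCs), fibroblasts (FBs) and endothelial cells (ECs) of male C57Bl/6J mice aged 12 to 14 weeks. Hearts were taken from mice that were not operated (D0) and at D1, D3, D7, D14 and D28 after acute myocardial infarction (AMI), made by permanent ligation of the left anterior descending artery. Each of the 24 groups of cell type and day held 4 libraries, 96 in all, and each library was pooled RNA of 3 mice, or of 2 if a sample was lacking. D0 hearts had no sham operation, so the effects of surgery and infarction cannot be told apart. CMs were enriched by centrifugation, ECs with anti-CD144 beads, HCs with anti-CD45 beads, and FBs by plating, which selects cells that adhere. The 4 cell types were taken from the same hearts, and each cell type was prepared for sequencing in batches of its own, with 500 ng of RNA and 14 PCR cycles for CMs, 50 ng and 16 cycles for ECs, and 150 ng and 15 cycles for FBs and HCs. Cell type and preparation therefore cannot be told apart.

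A miRNA hairpin is cut into a short duplex, and usually 1 strand of it is kept in the silencing complex while the other is degraded, so the 5p and 3p arms of the same hairpin reach different levels. The kept strand pairs with messenger RNAs mainly through its seed, bases 2 to 8 from the 5′ end, and lowers their translation and stability. miR-23 and miR-27 are known for their part in blood vessel growth and endothelial sprouting, miR-23a for growth of cardiac muscle cells, miR-27 for fat cell differentiation, and miR-24 for endothelial cell death and calcium handling in cardiac muscle. The hairpins of a cluster lie close enough to be made from a shared primary transcript, but their mature products need not have equal levels.

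On GRCm38.p6, the a cluster lies on chromosome 8, plus strand, with Mir23a at chr8:84208518-84208592, Mir27a at chr8:84208672-84208758 and Mir24-2 at chr8:84208815-84208921, a span of 404 bases. It lies outside protein-coding genes, and Mir24-2 overlaps an exon of the lincRNA Gm26532. The b cluster lies on chromosome 13, plus strand, with Mir23b at chr13:63300484-63300557, Mir27b at chr13:63300712-63300784 and Mir24-1 at chr13:63301208-63301275, a span of 792 bases. Mir23b lies in an intron of the protein-coding gene 2010111I01Rik, Mir27b and Mir24-1 overlap an annotated exon of it, and all 3 lie in an intron of Fancc on the other strand. Mature sequences from RefSeq (GRCm38.p6) matched 9 of the 10 members and are given 5′ to 3′ with the seed in capitals, because they show which members share a seed and how well reads of a and b can be separated. miR-23b-3p is given by name only.
miR-23a-3p: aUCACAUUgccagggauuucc
miR-27a-3p: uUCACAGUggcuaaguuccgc
miR-27b-3p: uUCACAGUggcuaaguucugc
miR-24-3p: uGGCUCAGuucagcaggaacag
miR-27a-5p: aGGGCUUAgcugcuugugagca
miR-27b-5p: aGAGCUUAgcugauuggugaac
miR-24-2-5p: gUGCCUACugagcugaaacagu
miR-24-1-5p: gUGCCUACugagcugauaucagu
miR-23b-5p: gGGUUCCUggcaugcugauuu
The 3p arms of miR-27a and miR-27b share their seed and differ at 1 of 21 positions, C19U counted from the 5′ end of miR-27a-3p. The 5p arms of miR-27 differ at 8 of 22 positions, including 1 in the seed, G3A. The 5p arms of miR-24-2 and miR-24-1 share their seed and differ at 5 of 22 positions, all from position 17 on. A read of a 27-3p arm that ends before base 19 cannot be assigned to a or b, and how such reads were counted is not given in the sources used here.

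The total count on mature miRNAs was 3327351 to 24279105 for CMs, 525651 to 29037628 for ECs, 2217588 to 65588543 for FBs and 18286 to 29504666 for HCs. The library with 18286 counts, replicate 3 of HCs at D0, stood apart. It held no count of miR-23b-5p, miR-27b-5p or miR-24-1-5p, which at this depth allows up to 164 CPM (counts scaled to a total of 1000000 mature counts) for each, a limit that covers counting error only. Marker miRNAs were present in their cell types: CM markers (such as miR-1a-3p and miR-208a-3p) summed to 311247 CPM or more in every CM library and to at most 162111 CPM elsewhere, and FB markers (miR-199a and miR-214) to 40646 CPM or more in FBs and to at most 18739 CPM elsewhere. EC and HC libraries also held CM markers, 20924 to 162111 CPM and 25975 to 132287 CPM. In CMs the 4 libraries at D0 had TMM factors of 0.289 to 0.357, against 0.491 to 2.04 on later days. TMM is a scaling that keeps the typical miRNA level between libraries, and it matters here because a few muscle miRNAs fill most of a D0 CM library. The median miRNA in CMs changed from D0 by 0.20 to 0.44 (log2) with TMM and by 1.42 to 2.99 with library size alone. In the other cell types the shift was -0.08 to 0.18 with TMM and -0.10 to 0.59 with library size. Changes of members are therefore given on the TMM scale and, mainly in CMs, also relative to the median miRNA. A change of scaling shifts all miRNAs of a library alike, so values relative to the median are mostly near equal under both by construction. Their likeness is therefore not a check of the result. Each library is a bulk sample, so fewer cells of a type and less RNA per cell cannot be told apart.

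The 3p arms carried most of the clusters' signal, and in CMs at D0 their CPM was far below that in the other cell types. This order depends on the scaling: with TMM in the D0 libraries, CMs lay below ECs, FBs and HCs for miR-23a-3p (log2 differences of -1.52, -1.48 and -1.16) and miR-23b-3p (-1.38, -1.43 and -1.02), but above them for miR-27a-3p (0.41, 0.68 and 0.91) and miR-27b-3p (0.91, 0.96 and 1.45), with miR-24-3p at 0.23, -0.22 and -0.21. The 3p arms held 96.6% to 99.4% of the members' counts in every library. miR-27a-3p and miR-27b-3p were the most abundant, ranking 19th and 7th by mean CPM in CMs, 8th and 9th in HCs, 13th and 14th in ECs and 16th and 15th in FBs. miR-24-3p ranked 21st to 31st, and the 23-3p arms ranked 39th to 56th. All 10 members together made up 1.11% ± 0.16 (SD, n = 4) of mature counts for CMs at D0, 5.69% ± 0.71 for ECs, 6.73% ± 0.72 for FBs and 6.04% ± 1.14 for HCs.

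At D0 miR-23a-3p had 136 ± 75.4 CPM (SD, n = 4) in CMs, 2953 ± 167 in ECs, 3121 ± 75.6 in HCs and 3560 ± 530 in FBs. The CM libraries, at 72.9 to 241 CPM, lay below every library of the other cell types, and ECs (2786 to 3150), HCs (3009 to 3172) and FBs (3148 to 4310) overlapped their neighbours in that order. miR-23b-3p, its b counterpart, had 128 ± 65.7 CPM in CMs, 2525 ± 189 in ECs, 2665 ± 49.2 in HCs and 3225 ± 519 in FBs, and CMs again stood apart, while ECs (2319 to 2717) overlapped HCs (2630 to 2734), and FBs (2774 to 3947) lay just above both. miR-27a-3p had 4372 ± 544 CPM in CMs and 22767 ± 5480 in HCs, 24087 ± 3961 in ECs and 24779 ± 3220 in FBs. miR-27b-3p had 5221 ± 989 CPM in CMs, 18982 ± 2857 in HCs, 20566 ± 2774 in ECs and 24500 ± 3420 in FBs. For both 27-3p arms the ranges of HCs, ECs and FBs overlapped. miR-24-3p had 987 ± 155 CPM for CMs, 6075 ± 433 for ECs, 10284 ± 792 for FBs and 10983 ± 2761 for HCs, and the FB and HC ranges overlapped while every EC library lay below those of FBs.

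**Figure D1:**
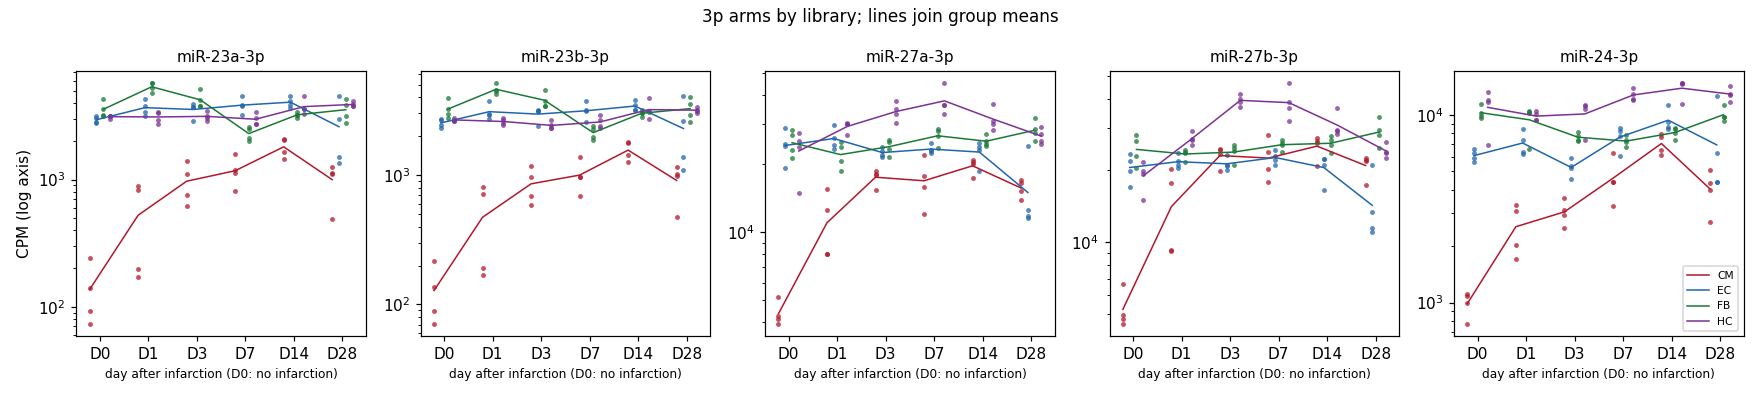
Levels of the 5 3p arms, in CPM on a log axis, by day (D0 is without infarction). Each point is 1 library, colours are the 4 cell types and lines join group means. The CM libraries at D0 lie below those of the other cell types for each arm, for example at 72.9 to 241 CPM for miR-23a-3p, and above D0 from D3 on.

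In CMs, miR-23a-3p and miR-23b-3p rose after infarction, while the other 3p arms stayed near or below the typical miRNA and each 5p arm fell on the TMM scale on at least 1 day. With library size alone 12 of the 20 falls called in CMs turned in direction, those of miR-23b-5p on 5 days, of miR-24-2-5p on 4, and of miR-24-1-5p, miR-27b-5p and miR-27a-3p on 1 each. All 10 members changed over the days in CMs (edgeR quasi-likelihood F test, adjusted p under the threshold of 0.05), where 73.8% of the 484 miRNAs tested did. Called members numbered 0 higher and 2 lower at D1, 2 and 5 at D3, 1 and 4 at D7, 2 and 5 at D14, and 2 and 4 at D28, while 25%, 55.2%, 69%, 67.1% and 54.3% of all miRNAs were called on those days (13.6%, 31.8%, 38.8%, 38% and 29.5% higher, and 11.4%, 23.3%, 30.2%, 29.1% and 24.8% lower).

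miR-23a-3p had 241, 139, 92.1 and 72.9 CPM in the 4 CM libraries at D0 and 2072, 1442, 1656 and 2064 CPM at D14. The libraries of D3, D7, D14 and D28 all lay above D0, and those of D1 (172, 200, 833 and 891 CPM) overlapped it. On the TMM scale it rose by 0.86 (SE 0.32, adjusted p = 0.026, edgeR) at D3, 0.76 at D7, 1.12 (SE 0.32, adjusted p = 0.0039) at D14 and 1.04 at D28, which is 0.42, 0.41, 0.71 and 0.79 above the median miRNA, and 0.46, 0.43, 0.74 and 0.88 above it with library size alone. miR-23b-3p had 218, 136, 88.7 and 70.4 CPM at D0 and 1791, 1261, 1422 and 1755 CPM at D14, again with no overlap. It rose by 0.77 at D3, 0.99 (SE 0.30, adjusted p = 0.0058) at D14 and 1.00 at D28, and its D7 value of 0.61 had an adjusted p of 0.073.

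The 27-3p arms and miR-24-3p also had more CPM after infarction, with every CM library from D1 on above D0, but the typical miRNA did so too. miR-27a-3p went from 5162, 3930, 4255 and 4140 CPM at D0 to 19975, 20367, 20735 and 17320 CPM at D14. Its change at D14 was -0.44 (SE 0.18, adjusted p = 0.035, edgeR) with TMM and 2.16 with library size alone, and it lay 0.85 and 0.82 below the median miRNA under the 2 scalings. miR-27b-3p had 4523 to 6682 CPM at D0 and 20943 to 27373 CPM at D14, with TMM changes of -0.33 to 0.28 and no day past the threshold. miR-24-3p went from 994, 766, 1083 and 1107 CPM at D0 to 7957, 6522, 6093 and 7607 CPM at D14, with TMM changes of -0.31 to 0.27, none past the threshold. Relative to the median miRNA it lay lowest at D3, at -0.74 under both scalings.

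The 5p arms of miR-27 changed in the other direction from miR-23-3p. miR-27a-5p, the partner strand of miR-27a-3p, had 15.8, 40.3, 31.0 and 40.5 CPM at D0 and 26.2, 22.6, 12.6 and 21.8 CPM at D14, and the ranges overlapped. Scaled with TMM it fell by 2.25 at D3, 2.89 at D7, 3.22 (SE 0.48, adjusted p = 6.5e-06, edgeR) at D14 and 2.34 at D28, and with library size alone its D14 value was -0.61 (adjusted p = 0.075). miR-27b-5p had 7.62, 10.8, 6.04 and 9.03 CPM at D0 and 5.81, 6.73, 6.36 and 6.66 CPM at D7, also overlapping. It fell by 1.19 at D1, 2.25 at D3, 2.70 (SE 0.38, adjusted p = 3.7e-06) at D7, 2.37 at D14 and 1.74 at D28. With library size alone these were -0.19, -0.32, -0.39 (adjusted p = 0.14), 0.24 and -0.06, none of which passed and of which D14 turned in direction. At D7 miR-27a-5p lay at -3.24 and -3.26 and miR-27b-5p at -3.05 and -3.06 relative to the median miRNA under the 2 scalings. These pairs are near equal by construction.

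miR-24-2-5p was called lower from D3 to D28, by -1.47 (SE 0.37, adjusted p = 0.0020, edgeR) at D3, although its CPM at D14 (589, 1051, 674 and 523) exceeded D0 (159, 151, 294 and 288) in every library and its values turned to 0.44, 1.28, 1.67 and 0.55 on those days with library size alone. miR-24-1-5p was called at D3 only, at -0.91 (SE 0.38, adjusted p = 0.044), which turned to 1.03 with library size alone. It went from 7.90, 6.73, 12.5 and 13.5 CPM at D0 to 26.7, 59.4, 64.8 and 121 CPM at D7, with no overlap. Relative to the median miRNA its D7 change was 0.04 with TMM and 0.07 with library size alone. miR-23b-5p was called lower on all 5 days, by -0.83 to -1.27, on 18 to 27 counts per library at D0, and with library size alone it turned to 0.49 to 1.71. Relative to the median miRNA, miR-23b-5p lay at -1.03 to -1.58 with TMM and at -0.93 to -1.59 with library size alone. For miR-24-2-5p at D3 these values were -1.90 and -1.93.

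Marker levels of other cell types moved in the same CM libraries. The summed EC markers (both arms of miR-126a) went from 4423 to 9789 CPM at D0 to 19277 to 27651 CPM at D14, the summed FB markers from 36.5 to 114 CPM to 1358 to 2188 CPM, and the summed HC markers from 14.6 to 75.8 CPM to 151 to 182 CPM, while CM markers went from 603382 to 709040 CPM to 311247 to 419381 CPM and mural cell markers (miR-143-3p and miR-145a-5p) from 22682 to 36325 CPM to 15754 to 18619 CPM, both lower without overlap. At most 1 marker of a list was at 0 in any library. Their part in the changes of the members was not tested.

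**Figure D2:**
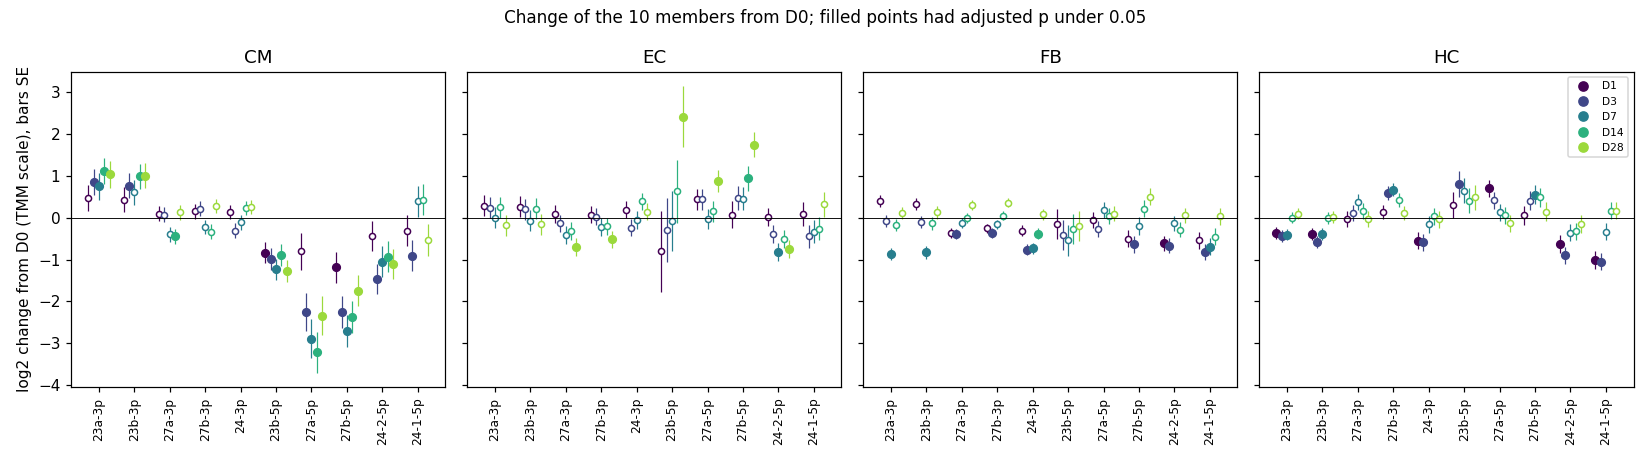
Log2 change of each member from D0 on the TMM scale, by cell type, with 1 point per day (colours) and bars of 1 SE. Filled points passed the adjusted p threshold of 0.05. The largest falls are those of miR-27a-5p (-3.22 at D14) and miR-27b-5p (-2.70 at D7) in CMs, and among the filled points of ECs the rises are on the 5p arms.

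The ratio of the 5p to the 3p arm of a hairpin is free of library scaling, and it fell in CMs for all 4 hairpin families. Over the days 4 of 4 were called in CMs (limma F test), where 71% of the 100 arm pairs tested were. In ECs 3 of 4 were called against 41% of all, in FBs 1 against 50%, and in HCs 0 against 16.3% (limma, 1 of 4 at an unadjusted p under 0.05, and 2 of 4 without replicate 3 of D0). The miR-27a ratio in CMs was -8.35, -6.61, -7.10 and -6.67 (log2 of 5p over 3p counts) at D0 and -9.57, -9.81, -10.66 and -9.63 at D14. Every D14 library lay below D0, with a change of -2.74 (SE 0.44, adjusted p = 1.7e-05, limma). The miR-27b ratio was -9.77, -8.83, -9.54 and -9.03 at D0 and -11.57, -12.03, -11.63 and -11.80 at D7, and it was below D0 in every library of every later day, by 1.56 to 2.47. The miR-23b ratio was below D0 without overlap on all 5 days, with changes of -1.33 at D1 and -2.42 (SE 0.36, adjusted p = 2.5e-05) at D28. The miR-24 ratio, which sums both 5p arms over miR-24-3p, changed by -1.10 at D3, -1.07 at D14 and -1.35 (SE 0.37, adjusted p = 0.0031) at D28, and its D1 and D7 values (-0.73 and -0.80) did not pass the threshold.

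In ECs the 27 arms moved the opposite way at D28. The miR-27b ratio was -11.64, -10.63, -11.27 and -11.83 at D0 and -10.19, -9.17, -8.50 and -8.51 at D28, with no overlap and a change of 2.25 (SE 0.38, adjusted p = 0.00032, limma). It was above D0 without overlap at D14 too, where its change of 1.26 had an adjusted p of 0.16. The miR-27a ratio rose by 1.49 (SE 0.38, adjusted p = 0.0043) at D28, with libraries that overlapped D0. The miR-24 ratio fell in ECs, by 0.90 (adjusted p = 0.039) at D14 and 0.83 (adjusted p = 0.0043) at D28, and rose in FBs by 0.58 (SE 0.14, adjusted p = 0.0073) at D7.

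These changes of the arm ratios differed between cell types. The contrast of the change in 1 cell type with the mean change in the other 3, a test added after the data were seen, was -2.84 (SE 0.36, adjusted p = 3.6e-10, limma) for miR-27b and -2.83 (SE 0.39) for miR-27a in CMs at D28. In ECs at D28 it was 2.90 (SE 0.36, adjusted p = 5.2e-10) for miR-27b and 2.46 (SE 0.39) for miR-27a. In FBs at D7 it was 1.16 (SE 0.26, adjusted p = 0.00082) for miR-24. The 4 contrasts of a day share their data, so a large value in CMs adds to those of the other cell types. At D28 54.1% of all arm ratios were called in CMs and 50% in ECs, and 26.7% were in FBs at D7.

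**Figure D3:**
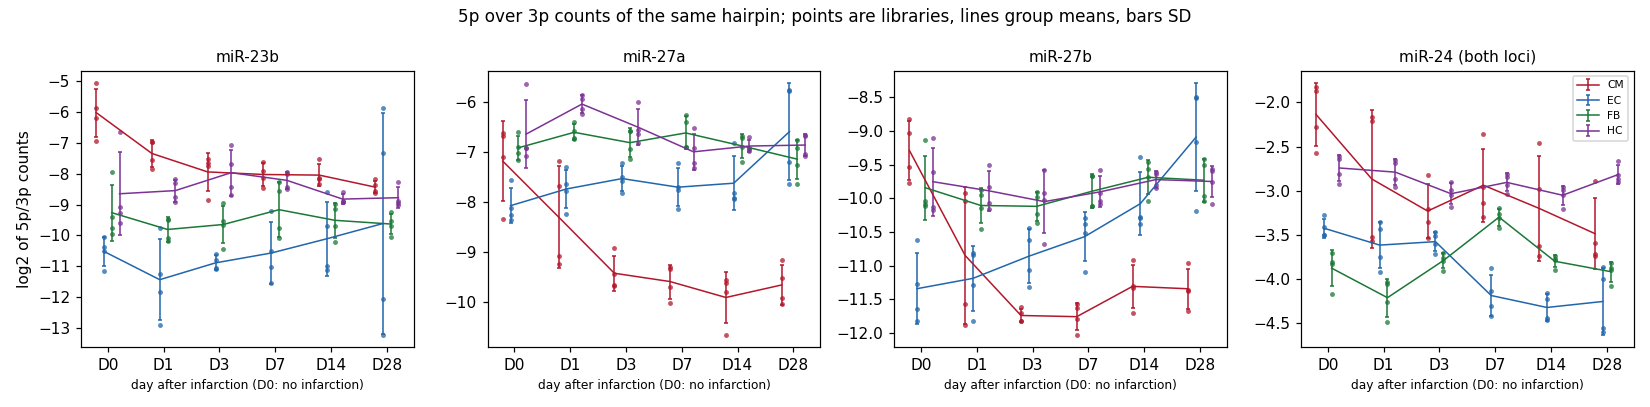
Log2 ratio of 5p over 3p counts for the 4 hairpin families by day. Points are libraries, lines group means, bars 1 SD, and colours the cell types. In CMs each ratio is lower after D0, for miR-27a from a mean of -7.18 at D0 to -9.92 at D14, and in ECs the miR-27b ratio goes from -11.34 at D0 to -9.09 at D28.

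In ECs the members changed mainly at D28, when the 27-3p arms were called lower and 3 of the 5p arms higher. Among these 5p arms, the calls of miR-23b-5p and miR-27a-5p each rested on 1 library. Over the days 5 of 10 members were called (edgeR F test), where 58.2% of the 421 miRNAs tested were. No member was called at D1 or D3, 1 was lower at D7, 1 was higher at D14, and 3 were higher and 3 lower at D28, against 0%, 17.6%, 22.6%, 14.5% and 47% of all miRNAs (0%, 15.4%, 17.8%, 11.4% and 26.8% higher, and 0%, 2.14%, 4.75%, 3.09% and 20.2% lower). At D1 edgeR called 0 of 421 miRNAs, with 17 at an unadjusted p under 0.05, and no member passed by either edgeR's unadjusted p or DESeq2. At D3 no member had an unadjusted p under 0.05 and DESeq2 called 1.

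miR-27b-5p in ECs had 6.64, 10.7, 9.48 and 5.22 CPM at D0, 17.8, 15.7, 17.9 and 24.4 CPM at D14 and 17.1, 22.95, 29.9 and 31.3 CPM at D28. The libraries of D7, D14 and D28 all lay above D0. It rose by 0.94 (SE 0.29, adjusted p = 0.027, edgeR) at D14 and 1.75 (SE 0.30, adjusted p = 4.5e-05) at D28, on 9 to 122 counts per library at D28. miR-27a-5p had 87.5, 101, 87.9 and 77.9 CPM at D0 and 120, 215, 230 and 78.9 CPM at D28, with 1 library inside the D0 range. It rose by 0.88 (SE 0.26, adjusted p = 0.0056), and by 0.54 without replicate 2, which no longer passed. miR-23b-5p was called higher by 2.42 (SE 0.73, adjusted p = 0.0072) at D28, but its counts there were 0, 0, 5 and 73, and without replicate 4 the change was 0.05. The 2 libraries at 0 allow up to 5.71 and 1.64 CPM.

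miR-27a-3p had 24365, 19150, 28842 and 23990 CPM in ECs at D0 and 24016, 11777, 12459 and 11554 CPM at D28, where replicate 1 kept the D0 level. It fell by 0.70 (SE 0.21, adjusted p = 0.0079, edgeR). miR-27b-3p fell by 0.51 (SE 0.21, adjusted p = 0.044), and by 0.35, which did not pass, without the library farthest from its group, and miR-24-2-5p by 0.82 (adjusted p = 0.0055) at D7 and 0.74 (adjusted p = 0.0066) at D28. With library size alone the D7 value of miR-24-2-5p was -0.46 and did not pass. The 23-3p arms and miR-24-3p changed by -0.24 to 0.40 on all days in ECs, none past the threshold. At D28 the mean depth of ECs was lowest, with 525651 to 3902765 counts, and marker sums ranged widely, with EC markers at 103768 to 224231 CPM, mural cell markers at 22370 to 102093 CPM and CM markers at 21003 to 80702 CPM. Their part in the D28 changes was not tested.

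In FBs the members that changed from D0 were lower, mainly at D3 and D7. Over the days 8 of 10 were called (68.2% of 563 miRNAs). From D1 to D28 the lower members numbered 1, 6, 4, 1 and 0, and no member was called higher on any day. The shares of all miRNAs called were 7.99%, 43%, 45.6%, 24.7% and 6.75% (5.86%, 22.9%, 24.5%, 14.4% and 4.8% higher, and 2.13%, 20.1%, 21.1%, 10.3% and 1.95% lower). At D1 edgeR gave 8 members an unadjusted p under 0.05, as it did 140 of the 563 miRNAs, and DESeq2 called 1 member. At D28 edgeR gave 3 members an unadjusted p under 0.05 and DESeq2 called 1. miR-23a-3p had 3148, 3228, 3556 and 4310 CPM at D0, 4788, 5759, 5209 and 5694 CPM at D1 and 1997, 2575, 2483 and 2136 CPM at D7. Both days lay outside the D0 range, above it at D1 and below it at D7. The D1 change of 0.41 had an adjusted p of 0.075, and at D7 it fell by 0.86 (SE 0.14, adjusted p = 4.0e-05, edgeR). miR-23b-3p fell at D7 by 0.83 (SE 0.15, adjusted p = 8.2e-05), from 2774, 2938, 3239 and 3947 CPM to 1862, 2396, 2281 and 1963 CPM. At D28 both overlapped the D0 range.

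miR-24-3p in FBs had 9591, 11388, 9857 and 10299 CPM at D0, 8068, 7721, 7388 and 7264 CPM at D3 and 7344, 7811, 7161 and 6713 CPM at D7, with every library of both days below D0. It fell by 0.76 (SE 0.14, adjusted p = 6.1e-05, edgeR) at D3, 0.73 (SE 0.14, adjusted p = 0.00012) at D7 and 0.38 (adjusted p = 0.042) at D14. miR-24-1-5p went from 31.3, 32.9, 32.8 and 33.3 CPM at D0 to 25.4, 22.9, 21.4 and 23.2 CPM at D3, a fall of 0.81 (SE 0.20, adjusted p = 0.0019), and fell by 0.69 at D7. miR-24-2-5p fell by 0.61 at D1 and 0.67 (adjusted p = 0.0041) at D3. The D3 falls of miR-24-2-5p, miR-27a-3p (-0.38), miR-27b-3p (-0.36) and miR-27b-5p (-0.63) did not pass with library size alone, where they were -0.34, -0.06, -0.04 and -0.31. FB markers summed to 40646 to 63149 CPM at D0 and 50691 to 59027 CPM at D7, and EC markers to 20888 to 30916 CPM and 21299 to 28277 CPM. Mural cell markers lay higher at D7 without overlap (24568 to 27493 CPM at D0 and 28109 to 35780 CPM at D7), and HC markers lay lower without overlap (222 to 236 CPM and 99.6 to 158 CPM). Their part in the changes of the members was not tested.

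In HCs the 23-3p arms and the miR-24 arms fell in the first days on the TMM scale, while miR-27b-3p rose. At D3 miR-23a-3p turned with library size alone. miR-23b-3p and miR-24-3p turned at D3 only with library size without the most abundant miRNA. Over the days 7 of 10 members were called (73.5% of 608 miRNAs). There were 1 higher and 5 lower at D1, 2 and 5 at D3, 2 and 2 at D7 and none at D14 or D28, against 54.3%, 59%, 49.5%, 28.1% and 24% of all miRNAs (25.3%, 30.9%, 29.9%, 15.3% and 12.7% higher, and 28.9%, 28.1%, 19.6%, 12.8% and 11.3% lower). At D14 edgeR gave 2 members an unadjusted p under 0.05 and DESeq2 called 2, and at D28 both gave none. miR-27b-3p had 19357, 21745, 14984 and 19840 CPM at D0, 41987, 38659, 37006 and 39798 CPM at D3 and 36560, 38597, 32236 and 46622 CPM at D7. Every library of every later day lay above D0. It rose by 0.59 (SE 0.16, adjusted p = 0.0032, edgeR) at D3 and 0.68 (SE 0.16, adjusted p = 0.0013) at D7, and by 0.50 at D7 without the shallow D0 library. miR-27a-3p, which shares its seed, had 23806, 27219, 14820 and 25221 CPM at D0 and 37686, 34792, 33233 and 30198 CPM at D3, and its changes of -0.04 to 0.37 were not called.

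miR-24-1-5p in HCs had 27.03, 35.9, 0 and 34.8 CPM at D0, the 0 being the shallow library, and 25.4, 19.3, 20.1 and 22.6 CPM at D1. It fell by 1.00 (SE 0.21, adjusted p = 0.00027, edgeR) at D1 and 1.05 (SE 0.21, adjusted p = 0.00013) at D3, or 1.07 at D3 without that library. miR-24-2-5p fell by 0.63 at D1 and 0.90 (adjusted p = 0.00056) at D3. miR-24-3p fell by 0.55 at D1 and 0.59 (SE 0.20, adjusted p = 0.015) at D3, and without the library of 18286 counts the D3 fall was 0.81, while without replicate 4 of D3 it was 0.23 and did not pass. miR-23a-3p fell by 0.36, 0.44 and 0.40 at D1, D3 and D7, and its D3 value turned to 0.0097 with library size alone and to 0.19 with library size without the most abundant miRNA. miR-23b-3p fell by 0.40, 0.59 and 0.39, and its D3 value was -0.14 with library size alone and turned to 0.039 without the most abundant miRNA. Under that last scaling miR-24-3p at D3 turned to 0.040, and under DESeq2 miR-23a-3p (-0.15) and miR-24-3p (-0.29) did not pass at D3. With library size alone the median miRNA in HCs rose by 0.34 at D1 and 0.59 at D7. Relative to it, miR-23a-3p lay at -0.35 and -0.66 on those days, and miR-23b-3p at -0.38 and -0.64. Little of the D1 and D7 falls of the 23-3p arms was therefore left on that scale.

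miR-27a-5p rose in HCs by 0.71 (SE 0.20, adjusted p = 0.0050, edgeR) at D1, from 196, 200, 273 and 209 CPM to 520, 430, 357 and 491 CPM, with no overlap. miR-23b-5p was 0.80 higher at D3 (adjusted p = 0.027) and miR-27b-5p 0.56 higher at D7 (adjusted p = 0.045). In the same HC libraries the EC markers went from 54905 to 91837 CPM at D0 to 14781 to 21541 CPM at D3, the CM markers from 85776 to 132287 CPM to 38493 to 64736 CPM, the mural cell markers from 21694 to 32350 CPM to 4768 to 7316 CPM, and the HC markers from 6819 to 10015 CPM to 14671 to 25044 CPM. Their part in the changes of the members was not tested.

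**Figure D4:**
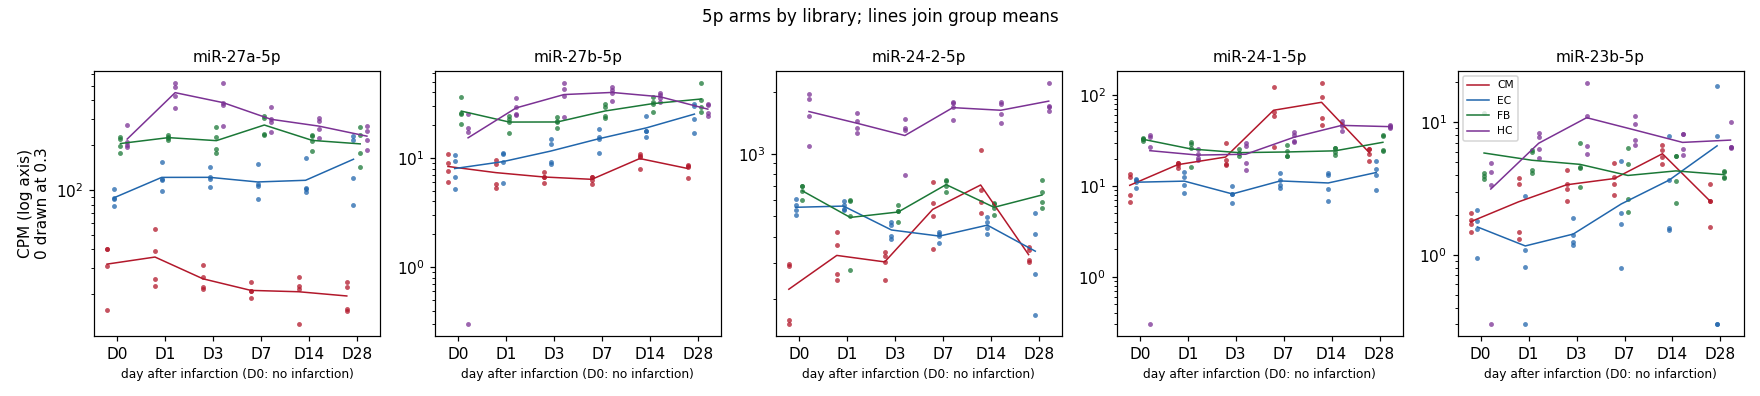
Levels of the 5 5p arms in CPM on a log axis, by day, drawn as for the 3p arms, with counts of 0 drawn at 0.3 CPM. The EC libraries of miR-27b-5p rise from 5.22 to 10.7 CPM at D0 to 17.1 to 31.3 CPM at D28, and those of miR-24-1-5p in CMs from 6.73 to 13.5 CPM at D0 to 26.7 to 121 CPM at D7. Relative to the median miRNA, that change of miR-24-1-5p was 0.04 (log2, TMM).

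The changes of the levels were compared between cell types by the same kind of contrast on all 96 libraries (edgeR, 712 miRNAs), and 55 of 200 contrasts of the members were called, with 102 under library size alone. CMs differed most often, with 3, 7, 6, 5 and 5 members called from D1 to D28, against 20.5%, 39.9%, 44.8%, 43.8% and 39.6% of all miRNAs. There the contrast was positive for the 23-3p arms, at 1.47 (SE 0.30, adjusted p = 1.7e-05) for miR-23a-3p at D7, and negative for the 27-5p arms, at -3.09 (SE 0.36) for miR-27a-5p at D14 and -2.71 (SE 0.33) for miR-27b-5p at D7. ECs had 7 members called at D28 (39.9% of all), including -1.08 (SE 0.23, adjusted p = 6.7e-05) for miR-27a-3p, -1.001 (SE 0.22) for miR-27b-3p and 1.93 (SE 0.35) for miR-27b-5p. FBs had 4 called at D7 (30.9% of all), with -1.03 (SE 0.29, adjusted p = 0.0042) for miR-23a-3p. HCs had 4 called at D1 (26.8%), 4 at D3 (33.7%) and 3 at D7 (19.5%), with -1.03 (SE 0.29) for miR-23b-3p at D3 and 0.78 (SE 0.22, adjusted p = 0.0060) for miR-27b-3p at D7.

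The ratios of an a member to its b counterpart compare the counts assigned to the 2 clusters, without library scaling. The 3p ratios stayed near 1 to 1, and the 5p ratios moved further. How reads that match both 3p arms of a pair were counted is not given in the sources used here. A 3p ratio near 1 to 1 therefore cannot show whether the 2 clusters have equal levels. How well reads of miR-23a-3p and miR-23b-3p can be separated was not tested, because the sequence of miR-23b-3p was lacking. miR-23a-3p to miR-23b-3p had medians of 1.12 for CMs, 1.19 for ECs, 1.09 for FBs and 1.19 for HCs, and 0 of the 4 cell types had a call over the days (limma F test, adjusted p of 0.080, 0.56, 0.094 and 0.20). In CMs the single-day changes of 0.16 (SE 0.05, adjusted p = 0.017, limma) at D7 and 0.14 at D14 passed, with every library above D0. miR-27a-3p to miR-27b-3p had medians of 0.770 for CMs, 1.10 for ECs, 0.998 for FBs and 1.04 for HCs. It was called over the days in HCs alone (adjusted p = 0.0012), and in ECs its adjusted p was 0.052. In HCs the log2 ratio was 0.30, 0.32, -0.02 and 0.35 at D0 and -0.16, -0.15, -0.16 and -0.40 at D3, with no overlap and a change of -0.45 (SE 0.08, adjusted p = 6.8e-05), or -0.54 without the shallow D0 library. That change differed from the mean of the changes elsewhere by -0.34 (SE 0.08, adjusted p = 0.00028).

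miR-24-2-5p exceeded miR-24-1-5p by medians of 13.8-fold in CMs, 21.9-fold in FBs, 44.0-fold in ECs and 48.4-fold in HCs, and miR-27a-5p exceeded miR-27b-5p by 3.19-fold, 8.77-fold, 9.05-fold and 8.85-fold in the same order. Both 5p ratios were called over the days in all 4 cell types, so that the members had 2 of 4 pairs called in CMs, ECs and FBs and 3 of 4 in HCs, against 52.2%, 47.8%, 52.5% and 40.3% of all a and b pairs. In CMs the miR-24-2-5p to miR-24-1-5p log2 ratio was 4.32, 4.48, 4.56 and 4.41 at D0 and 3.701, 3.28, 2.95 and 2.60 at D7. All libraries from D3 on lay below D0, and the change was -1.31 (SE 0.23, adjusted p = 0.00011, limma) at D7 and -1.28 at D14. It fell in ECs by 1.17 (SE 0.23, adjusted p = 0.00074) at D28, was 0.53 lower in HCs at D14 (adjusted p = 0.018), and rose in FBs by 0.57 (SE 0.13, adjusted p = 0.0055) at D7. The HC value turned to 0.22 with a pseudocount of 5.

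The miR-27a-5p to miR-27b-5p ratio was 0.84 (SE 0.27, adjusted p = 0.013, limma) lower in CMs at D14 and 0.94 (SE 0.29, adjusted p = 0.014) lower in ECs at D28, both with libraries that overlapped D0. It was 0.60 (SE 0.18, adjusted p = 0.020) higher in HCs at D1. In FBs no single day passed although the F test did. The contrast between cell types was called for miR-24-2-5p to miR-24-1-5p in CMs at D7 (-1.32, SE 0.22) and in FBs at D7 (1.19, SE 0.22), with 55% and 23.3% of all pairs called. In the hairpin tables the mir-23a to mir-23b log2 ratio of CMs went from -2.65 ± 0.49 (SD, n = 4) at D0 to -0.98 ± 0.20 at D14, a change of 1.67 (SE 0.35, adjusted p = 0.00048), where the mature 3p ratio changed by 0.14. The mir-27a to mir-27b hairpin log2 ratio of CMs went from -3.98 ± 0.13 to -3.24 ± 0.19, a change of 0.73 (SE 0.13, adjusted p = 9.9e-05, limma). It was called higher from D3 to D28. The 3p arms hold nearly all mature counts of these hairpins, and the mature 27-3p ratio changed by -0.12 (adjusted p = 0.21, limma) at D14. The mature 27-5p ratio was lower at D14. The means of the hairpin ratio over the 24 libraries of a cell type were -3.64 to -3.003, against a mature 3p ratio near 1 to 1. The mir-24-2 and mir-24-1 hairpins hold the same miR-24-3p sequence. Their log2 ratio had group means of 0.01 to 0.05 in CMs and was called lower there from D3 to D28, by 0.05 (adjusted p = 6.4e-05, limma) at D14.

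**Figure D5:**
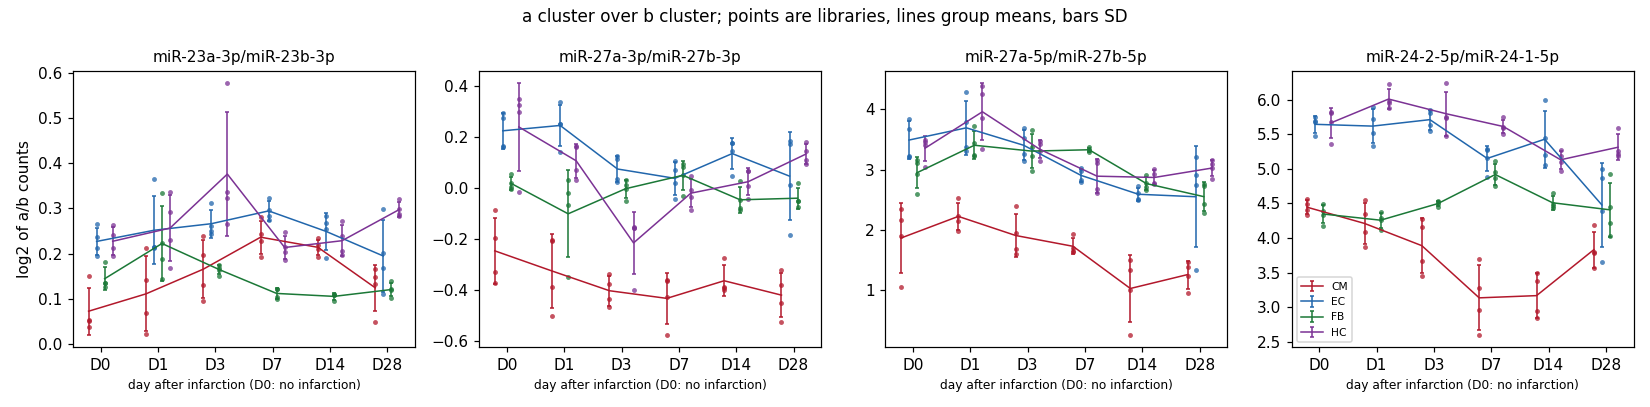
Log2 ratio of the a to the b counterpart for the 4 pairs of members by day. Points are libraries, lines group means, bars 1 SD, and colours the cell types. The 3p pairs have group means between -0.43 and 0.38, and the miR-24-2-5p to miR-24-1-5p ratio of CMs goes from 4.44 at D0 to 3.13 at D7.

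CMs had lower a to b ratios than the other cell types for 3 of the 4 pairs. With each cell type as the mean of its 6 days, 19 of 24 contrasts of the 4 pairs were called (limma), against 80%, 85% and 80% of all pairs for CMs against ECs, FBs and HCs, 65% for ECs against FBs, 66.7% for ECs against HCs and 68.3% for FBs against HCs. CMs were lower than ECs, FBs and HCs by 1.44, 1.38 and 1.57 (SE 0.10 each) for the 27-5p pair, by 1.56, 0.71 and 1.81 (SE 0.08 each) for the 24-5p pair and by 0.49, 0.34 and 0.41 (SE 0.03 each) for the 27-3p pair. In D0 libraries alone 10 of the 24 contrasts passed, and for the 24-5p pair the direction against FBs turned, with CMs 0.098 above FBs (adjusted p = 0.46).

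For levels, 48 of 60 contrasts of a member between cell types were called (edgeR), where 69.4% of all miRNAs were for CMs against ECs, 75.7% for CMs against FBs, 77.7% for CMs against HCs, 71.8% for ECs against FBs, 77.7% for ECs against HCs and 85.7% for FBs against HCs. Of these 48, 22 kept their direction under every alternative and 21 turned with library size alone, 14 of them among the 24 called contrasts that involve CMs. miR-23a-3p was lower in CMs than in ECs by 0.80 and than in FBs by 0.75, and miR-23b-3p by 0.72 and 0.77, and these kept their direction, while neither was called between CMs and HCs. The other 3p arms were called higher in CMs than in ECs, FBs and HCs, miR-27b-3p by 1.18, 0.98 and 1.41 and miR-27a-3p by 0.69, 0.63 and 0.99, as was miR-24-3p against ECs (0.34) and HCs (0.32), and all of these turned with library size alone, to -0.27, -0.62 and -0.81, to -0.78, -0.97 and -1.23, and to -1.14 and -1.89. miR-24-1-5p was 2.78 higher in CMs than in ECs and 1.67 higher than in FBs, the latter being 0.08 with library size alone. It was the only member enriched in a cell type, that is at least 1 log2 unit above each of the others, as 16.3% of all miRNAs were in CMs, and it no longer was with library size alone. No member was at least 1 unit below each of the others. ECs lay below FBs for miR-24-1-5p (-1.11), miR-27b-5p (-0.80) and miR-27a-5p (-0.76) and below HCs for miR-24-2-5p (-1.04), and FBs lay below HCs for miR-24-2-5p (-0.77).

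The balance of the families also moved, given here without a test. The log2 ratio of the 27-3p to the 23-3p counts was 5.31 ± 0.57 (SD, n = 4) in CMs at D0 and 3.75 ± 0.36 at D14. In FBs it was 2.86 ± 0.12 at D0, 2.19 ± 0.16 at D1 and 3.57 ± 0.13 at D7, and in HCs 2.83 ± 0.34 at D0 and 3.78 ± 0.27 at D7.

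The opposite strand of both miR-24 hairpins holds annotated hairpins, Mir3074-2 and Mir3074-1, and miR-3074-5p is complementary to miR-24-3p over 20 of its 22 bases.
miR-3074-5p: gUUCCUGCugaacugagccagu
It was listed with counts amounting to 52.8% of those of miR-24-3p for CMs, 66.4% for ECs, 69.0% for FBs and 60.0% for HCs. Whether the counting used strand is not given in the sources used here, so reads of the 2 cannot be told apart. Adding its counts to miR-24-3p, an alternative chosen after the data were seen, left the calls of miR-24-3p by day as they were except in FBs at D14, where -0.38 (adjusted p = 0.042, edgeR) became -0.34 (adjusted p = 0.079), and in CMs at D3, where -0.31 (adjusted p = 0.12) became -0.43 (adjusted p = 0.034). Other miRNAs with the seed of miR-24-3p (miR-6413, miR-6410, miR-6369 and miR-5124b) had 0 counts in all 96 libraries.

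Over the 24 group means of log2 CPM, the miRNAs most like each 3p arm were found among 290 candidates, from which the members themselves were left out. The points share libraries, depth and the composition of each cell type, and the correlations are descriptions. miR-23a-3p was most like miR-497a-5p (Pearson's r = 0.87), let-7e-3p (0.87) and miR-195a-5p (0.81), and miR-23b-3p was most like the same 3 (0.90, 0.89 and 0.86). miR-27a-3p was most like miR-29c-5p (0.86), miR-181c-3p (0.85) and miR-30c-1-3p (0.84), and miR-27b-3p like miR-22-3p (0.89), miR-30c-1-3p (0.89) and miR-29c-5p (0.88). miR-24-3p was most like miR-3074-5p (0.87), miR-28a-5p (0.77) and let-7d-5p (0.74).

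Other miRNAs linked with vessel growth, a list of 12, gave a setting for the members. In CMs 10 of 12 were higher and 0 lower at D3 (31.8% and 23.3% of all miRNAs tested), when 2 of the 10 members were higher and 5 lower. miR-210-3p, which rises under low oxygen, was 2.64 (SE 0.55, adjusted p = 0.00036, edgeR) higher and miR-17-5p, of a cluster linked with cell growth, 3.12 (SE 0.61) higher. In ECs at D28 1 was higher and 5 lower (26.8% and 20.2% of all). In FBs 7 were higher and 0 lower at D3 (22.9% and 20.1%), and 1 was higher and 4 lower at D7 (24.5% and 21.1%). In HCs at D3 8 were higher and 3 lower (30.9% and 28.1%), miR-210-3p by 3.07 (SE 0.26) and the endothelial miR-126a-3p by -2.43 (SE 0.25). Of 13 miRNAs linked with hypertrophy or fibrosis, 11 were higher and 2 lower in CMs at D14 (38% and 29.1% of all), with 4.31 (SE 0.52) for miR-208b-3p, which is made with the slow myosin heavy chain. In ECs at D28 0 of 12 tested were higher and 8 lower (26.8% and 20.2% of all), among them the collagen-targeting miR-29b-3p at -2.64 (SE 0.49). In FBs at D7 2 of 12 tested were higher and 6 lower (24.5% and 21.1%), and in HCs at D7 1 of 13 was higher and 9 lower (29.9% and 19.6%). miR-21a-5p, known from fibrosis, was 1.87 (SE 0.25) higher in FBs at D3. The median changes were 1.69 for the vessel list in CMs at D3 and 2.78 for the hypertrophy and fibrosis list in CMs at D14, beside 0.44 and 0.41 for all miRNAs tested. The vessel list holds both EC markers, and the other list holds all CM markers and the FB marker miR-199a-5p. Mean summed CM markers went from 109682 CPM at D0 to 33377 CPM at D7 in HCs, and from 104535 CPM to 49234 CPM at D28 in ECs. Mean summed EC markers went from 6915 CPM at D0 to 18579 CPM at D3 in CMs. The part of these markers in the list counts was not tested.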

How the data were processed

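Small RNA of 4 cell types at 6 days was measured in 96 libraries. Per the study's methods, the authors trimmed adaptors with Trim Galore, removed reads shorter than 18 bases and aligned the rest with the nf-core small RNA pipeline to miRBase 21 (Bowtie2, SAMtools and mm10 in the submitters' processing notes, without versions). The authors deposited raw counts per mature miRNA and per hairpin, in 192 tables. Handling of reads with several matches and of strand is not given in the sources used here. A line for unaligned reads, 25.6% to 83.0% of each mature table, was left out of library sizes and tests. Of 1561 mature miRNAs with a count, 77 had counts identical to those of another, and 0 of them were members.

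Changes from D0 were tested per cell type with edgeR 4.0.16 (R 4.3.3, TMM, filterByExpr, quasi-likelihood, day as factor, Benjamini-Hochberg over all 421 to 608 miRNAs, threshold 0.05). Log2 ratios of counts, with 0.5 added, were tested with limma 3.58.1 over all pairs averaging 10 or more counts per side. The likeness list was drawn from miRNAs averaging 10 CPM or more. Alternatives were DESeq2 1.42.0, library size alone or without the most abundant miRNA, no filter, a replicate block, a pseudocount of 5, a minimum of 50, a log2 fold change of 2, hairpin counts, D0 alone and libraries left out. The members and lists were chosen with earlier results of these data known. Named were all members, the 3 most like miRNAs of each 3p arm, and other miRNAs with the same seed. The study left out 1 replicate, not named, of ECs at D28, HCs at D0 and FBs at D0, and all 96 libraries were used here. Within a cell type each library pools separate mice, and p-values measure the spread between pools. The 4 cell types came from the same hearts, and the main fits on all 96 libraries treated their libraries as independent. Tests were checked on simulated counts and ratios with changes set at D7. The simulated counts held no shift of the typical miRNA like that of CMs at D0, so the check does not cover that shift. Levels and counts were summarised in Python 3.11.15 (pandas 2.3.3 and numpy 2.4.6).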

Additional observations from a re-analysis of the deposited data

Results flagged for a closer look

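In each group of 4 libraries, a library was noted where its gap to the nearest other, as a share of the group's range on a log2 scale, exceeded Dixon's 95% critical value. This held in 33 of 432 groups, 20 for levels and 13 for ratios, and chance alone gives about 1 in 20. In CMs the low libraries were replicate 4 at D14 for miR-27b-3p (20943 CPM), replicate 2 at D14 for miR-27b-5p (7.93 CPM), replicate 1 at D28 for miR-23a-3p (493 CPM), miR-23b-3p (476 CPM) and miR-27b-3p (17400 CPM), and replicate 3 at D28 for miR-27b-5p (6.61 CPM). In ECs they were replicate 1 at D3 for miR-23b-3p (2402 CPM, low), replicate 4 at D14 for miR-27a-5p (164 CPM, high) and replicate 1 at D28 for miR-27a-3p (24016 CPM, high). In FBs they were replicate 2 at D0 for miR-23b-5p (11.7 CPM, high) and replicate 2 at D1 for miR-24-3p (6622 CPM, low).

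In HCs the low libraries were replicate 4 at D0 for miR-23a-3p (3009 CPM), replicate 3 at D0 for miR-23b-5p, miR-27b-5p and miR-24-1-5p (0 CPM each, in the library of 18286 counts), replicate 3 at D1 for miR-27a-3p (26841 CPM), replicate 4 at D3 for miR-24-3p (7378 CPM) and replicate 3 at D14 for miR-24-3p (11410 CPM). The high ones were replicate 2 at D14 for miR-27b-3p (36558 CPM) and replicate 2 at D28 for miR-23b-5p (10.1 CPM).

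Among log2 ratios, miR-23a-3p to miR-23b-3p stood apart in CMs at D0 replicate 1 (0.15), ECs at D1 replicate 3 (0.36), FBs at D0 replicate 1 (0.18) and FBs at D14 replicate 2 (0.095). miR-27a-3p to miR-27b-3p did so in CMs at D14 replicate 4 (-0.27), HCs at D0 replicate 3 (-0.016) and HCs at D3 replicate 4 (-0.40), and miR-24-2-5p to miR-24-1-5p in HCs at D28 replicate 2 (5.59). Of the 5p to 3p ratios, miR-27a and miR-27b stood apart in ECs at D14 replicate 4 (-6.82 and -9.38), miR-27b in FBs at D0 replicate 2 (-9.14), miR-27a in HCs at D0 replicate 3 (-5.63) and miR-23b in HCs at D14 replicate 2 (-8.59).

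A change that differed from the mean of the changes elsewhere (edgeR, adjusted p under 0.05) was found for 27 combinations of cell type and member, each given here on the log2 scale at the called day where it was of the largest size. In CMs it was 1.47 for miR-23a-3p at D7, 1.35 for miR-23b-3p at D3, -1.97 for miR-23b-5p at D28, 1.14 for miR-24-1-5p at D7, 0.67 for miR-24-3p, 0.65 for miR-27a-3p and 0.56 for miR-27b-3p at D3, -3.09 for miR-27a-5p at D14 and -2.71 for miR-27b-5p at D7. In ECs at D28 it was -0.87 for miR-23a-3p, -0.81 for miR-23b-3p, 2.57 for miR-23b-5p, -1.08 for miR-27a-3p, 1.53 for miR-27a-5p, -1.001 for miR-27b-3p and 1.93 for miR-27b-5p. In FBs it was -1.03 for miR-23a-3p, -0.93 for miR-23b-3p and 1.07 for miR-27a-5p at D7 and -0.68 for miR-24-3p at D14. In HCs it was -0.93 for miR-23a-3p and -1.03 for miR-23b-3p at D3, -0.90 for miR-24-1-5p and -0.69 for miR-24-3p at D1, 1.13 for miR-27a-5p at D14, and 0.78 for miR-27b-3p and 1.26 for miR-27b-5p at D7. Here too the contrasts of a day share their data, so the falls of the 27-5p arms in CMs add to the other values. In CMs miR-24-3p, miR-27a-3p and miR-27b-3p were not called higher than D0 at D3. They lay there at -0.74, -0.36 and -0.22 relative to the median miRNA (TMM), and miR-24-1-5p lay at 0.04 at D7. In HCs at D14 no member was called against D0, and miR-27a-5p changed by 0.01 relative to the median miRNA. In FBs no member was called higher than D0 on any day.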

How the results depend on the processing

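Members called over the days numbered 6 in CMs without a filter (10 with it), and in FBs 4 with library size alone and 5 without the most abundant miRNA (8 with TMM). a and b pairs called numbered 0 in ECs in the hairpin tables, which do not separate the arms (2 in the mature ones), and 1 in HCs with a pseudocount of 5 (3 with 0.5). Arm ratios called numbered 2 in HCs without the farthest library (0 with it). Members enriched in CMs numbered 0 with library size or at a log2 fold change of 2 and 3 at D0 alone (1 otherwise), and in HCs 1 with library size (0 otherwise). Contrasts of pairs between cell types numbered 10 at D0 alone (19 over all days), and contrasts of changes 102 with library size (55 with TMM).

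With library size alone the direction turned in CMs for miR-27a-3p at D14 (2.16), miR-24-2-5p at D3 (0.44), miR-23b-5p at D28 (0.51) and miR-24-1-5p at D3 (1.03), and in HCs for miR-23a-3p at D3 (0.0097), and on further called days in CMs for miR-24-2-5p at D7 (1.28), D14 (1.67) and D28 (0.55), miR-23b-5p at D1 to D14 (0.49 to 1.71) and miR-27b-5p at D14 (0.24). Without the most abundant miRNA it turned in CMs for miR-27a-3p (1.21) and miR-24-1-5p (0.49) and in HCs at D3 for miR-23a-3p (0.19), miR-23b-3p (0.039) and miR-24-3p (0.040). The 24-5p pair turned in ECs at D28 (hairpins 0.0025), in HCs at D14 (pseudocount 5, 0.22, and hairpins 0.0062) and for CMs minus FBs (D0 alone 0.098, hairpins 0.0045). Both miR-24 hairpins hold the same miR-24-3p sequence. Their ratio had medians of 1.01 to 1.03 by cell type, against 13.8 to 48.4 for the 24-5p pair. The hairpin values therefore cannot check the 24-5p pair. The 27-3p pair turned for CMs minus FBs (hairpins 0.16) and ECs minus HCs (D0 alone -0.015, hairpins -0.13). The cause was not tested.

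Leaving out 1 library at a time gave 8 members called in FBs, 7 to 10 in CMs, 4 to 8 in ECs and 6 to 9 in HCs, 2 to 3 pairs in CMs, ECs and FBs and 3 in HCs, and 1 arm ratio in FBs, 3 to 4 in CMs, 2 to 3 in ECs and 0 to 2 in HCs. The highest count in ECs came without replicate 1 of D28 and the 2 arm ratios in HCs without replicate 3 of D0. For equal replicate numbers, deviations from group means correlated at 0.026 on average between cell types (-0.0088 for unequal numbers), and at -0.018 within a cell type. Every pair was over 0.1 in 1 of 36 comparisons between cell types and in 0 of 20 within. That 1 comparison was CMs with HCs at D1, at 0.25 (-0.083 for unequal numbers). A weak correlation cannot show whether libraries with equal replicate numbers hold the same mice. With a replicate block, members called numbered 8 in CMs and in FBs, 4 in ECs and 7 in HCs, and contrasts of changes 52. Of the alternative values of these counts and of each called member, pair or arm ratio at its day of largest change, and of the called cell type contrasts (for levels, those that no setting turned), 1799 kept their direction and side of the threshold, 156 kept the direction but no longer passed, 18 turned and 14 counts moved by over 1.5 times. At low depth the limit is the 0 to 73 counts behind miR-23b-5p in ECs at D28 and the library of 18286 counts.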
